A study of Mus musculus with 6 samples.

Results

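The splicing-sensitive arrays placed 388 of 13002 alternative events (2.98%) in a class of complex events that have several alternative paths and no path marked as exclusion. They were chosen by the event type written in the deposited table, an annotation that uses no measured value. These events lay in 379 genes and listed 1236 of the 26514 paths in the table (4.66%), where a path is 1 route of exons and junctions through the variable part of a transcript. All intensities were given for 1229 of these paths. The other 7 listed paths had no value.

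Brain RNA came from 6 mice of a B6.CAST congenic line, 3 homozygous for the CAST allele of *Nxf1* (*Nxf1* CAST) and 3 for the B6 allele (*Nxf1* B6), with 1 Affymetrix MJAY array for each animal. The animals were 3 same-sex littermate pairs, a female pair aged 46 days, a female pair aged 23 days and a male pair in which the *Nxf1* B6 animal was 22 and the *Nxf1* CAST animal 23 days old. *Nxf1* encodes the major export factor for messenger RNA, and the arrays were run to ask whether its CAST allele changes RNA processing choices in general. A congenic line also carries CAST sequence around the selected gene, and whole brain mixes neurons and glia, so that a shift of cell types and a change within cells cannot be told apart.

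Many mouse genes start transcription at several promoters, each with its own first exon spliced to a shared body, and others end at several sites or choose among sets of internal exons. When more than a pair of such routes exists, no route is the natural opposite of the others. The clustered protocadherins are the classic case in the nervous system, since a row of variable first exons feeds 1 set of constant exons and gives neurons distinct surface identities. *Bdnf*, the gene of a neurotrophin, likewise has a row of promoters that answer to different signals.

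Most events offered few paths. There were 46 events with 2 paths, 298 with 3, 34 with 4 and 10 with 5 or more, with a median of 3. The 10 largest were 4 events with 5 paths each and single events with 8, 9, 11, 13, 22 and 31 paths. Path numbers were not always continuous. In 68 events a number was skipped, and the highest number was 39, so the listed paths were not every path in the underlying annotation.

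**Figure D1:**
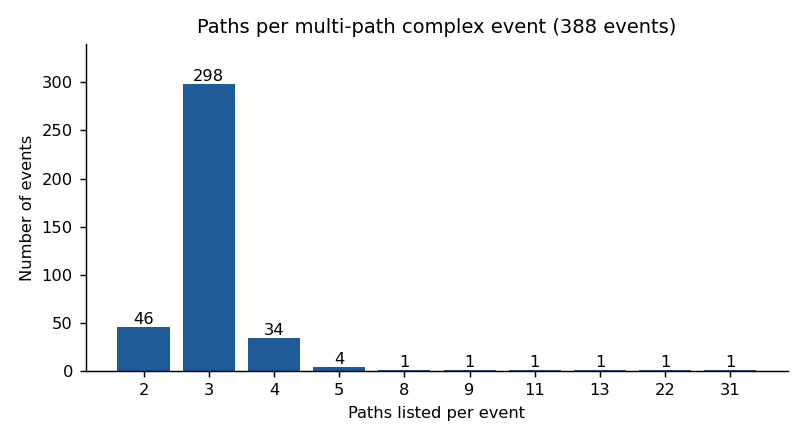
The bars give the number of multi-path complex events (vertical axis) with each number of listed paths (horizontal axis, classes without events left out), and the number above each bar is its height. The class of 3 paths held 298 of the 388 events.

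In 248 events (63.9%), the name of the event placed its left boundary at node 0, a code that was also found in 96.7% of the 2-path alternative starts, in 34.6% of complex events with an exclusion path and in none of the alternative ends. These are called start-type events below, and the code itself is not explained in the table. The 140 others had another left boundary. The events were long, with a median span of 28983 bases, compared with 15096 for 2-path alternative starts, 7914 for complex events that have an exclusion path and 5822 for all events. The shortest covered 633 bases and the longest 2755056. They were found on 21 chromosomes, with 41 on chromosome 11 (10.6%, compared with 8.02% of all events), 19 on X and 11 on chromosome 19. For the congenic interval, bases 7053631 to 11866235 were taken from the outermost array events of *Fkbp2*, *Ganab*, *Stx3*, *Tmem138* and *Ttc9c*. None of the events on chromosome 19 overlapped this span. The span is a minimum, and CAST sequence may reach farther on either side. The nearest events, in *Tcirg1* and *Chka*, lay 3.15 and 3.16 Mb from it.

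RefSeq names were found for 365 of the 379 genes, 329 by the printed symbol and 36 through an older one. Of the start-type genes, 202 had a promoter window in RefSeq (GRCm38.p6), and 159 of these (78.7%) had 2 or more transcription starts and 51.0% had 3 or more. The share with 2 or more was 36.2% in the other multi-path complex genes, 56.2% in genes with a 2-path alternative start and no multi-path event, and 28.7% in all array genes without a multi-path event. The windows of start-type genes, 250 bases before to 50 bases after a start, held a median of 13 CpG dinucleotides. This was below the 19 in the other multi-path complex genes, the 16 in 2-path alternative start genes and the 19 in array genes without a multi-path event. It was above the 7 in all 32851 windows. The ratio of observed to random CpG had medians of 0.57, 0.73, 0.64, 0.71 and 0.38 in the same order. The letters TATAAA, searched on both strands, were in 7.18% of the start-type windows, 8.23% of those of the other multi-path complex genes, 7.96% of those of 2-path alternative start genes, 7.51% of those of array genes without a multi-path event and 13.6% of all windows.

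The sequences below run from 120 bases before to 20 bases after RefSeq starts of 4 start-type genes that were among the 10 with the largest shifts, with CpG dinucleotides in capitals. They are shown because the starts of 1 gene can differ strongly in base composition. Whether the start-type events sample these starts is not known here. *Myo1c* went from 2 CpG in the whole window of its upstream start to 14 and 32 at the next ones, and *Zfp219* from 9 to 31. Both starts of *Rnf44* were rich in CpG (35 and 34), as was the start listed for *Cobll1* (39). Starts are numbered in the direction of transcription, and which array path belongs to which start is not given in the sources used here. 
Cobll1 start 1: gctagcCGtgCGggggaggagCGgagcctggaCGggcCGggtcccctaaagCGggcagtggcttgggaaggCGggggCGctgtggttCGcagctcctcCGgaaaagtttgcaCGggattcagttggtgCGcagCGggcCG
Zfp219 start 1: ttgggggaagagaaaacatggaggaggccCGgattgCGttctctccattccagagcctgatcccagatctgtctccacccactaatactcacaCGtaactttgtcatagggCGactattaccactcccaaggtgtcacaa
Zfp219 start 2: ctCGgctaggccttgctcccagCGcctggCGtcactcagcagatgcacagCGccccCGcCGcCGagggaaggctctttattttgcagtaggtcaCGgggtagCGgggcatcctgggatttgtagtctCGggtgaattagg
Myo1c start 1: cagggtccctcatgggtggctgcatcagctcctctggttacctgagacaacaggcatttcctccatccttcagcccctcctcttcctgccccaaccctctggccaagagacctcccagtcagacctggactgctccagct
Myo1c start 2: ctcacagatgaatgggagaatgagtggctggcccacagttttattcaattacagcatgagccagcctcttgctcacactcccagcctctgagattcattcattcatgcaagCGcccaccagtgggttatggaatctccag
Myo1c start 3: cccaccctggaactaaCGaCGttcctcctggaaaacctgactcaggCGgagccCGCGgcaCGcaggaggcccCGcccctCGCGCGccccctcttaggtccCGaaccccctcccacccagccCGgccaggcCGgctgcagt
Rnf44 start 1: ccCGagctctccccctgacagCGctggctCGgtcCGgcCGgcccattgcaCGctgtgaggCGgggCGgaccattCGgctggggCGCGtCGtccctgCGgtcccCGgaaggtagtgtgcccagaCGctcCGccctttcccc
Rnf44 start 2: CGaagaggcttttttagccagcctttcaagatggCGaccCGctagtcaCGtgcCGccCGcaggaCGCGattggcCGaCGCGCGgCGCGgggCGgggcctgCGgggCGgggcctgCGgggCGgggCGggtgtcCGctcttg

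In GRCm38.p6 the *Cobll1* sequence is chr2:65238772-65238911 on the minus strand. For *Zfp219*, also on the minus strand, the sequences are chr14:52020714-52020853 and chr14:52019694-52019833. The *Myo1c* sequences, on the plus strand, are chr11:75650399-75650538, chr11:75652030-75652169 and chr11:75655895-75656034. The *Rnf44* sequences, on the minus strand, are chr13:54693941-54694080 and chr13:54687789-54687928. These positions belong to another build than those of the array table, and the positions of events given further on are the table's own, in a build it does not name.

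For each path the table gives a path intensity and a reference intensity, once for set A and once for set B. Both are whole numbers that the authors had pooled across the 3 animals of the set. Set B was likely *Nxf1* CAST and set A likely *Nxf1* B6, since the table defines its score as mutant over wild type, but the letters themselves are not explained. The set letters are unrelated to the letters B and C that the sample labels use for genotype. The shift of a path is log2 of its path to reference ratio in set B divided by the same ratio in set A. A positive shift is thus a higher ratio of that path to its reference in set B. A shift beyond 0.5 in either direction, a linear fold of 1.41, was counted as past the fold. With 1 pooled value a set there is no spread between animals, so every value below is a description of these pooled sets with no test.

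The reference differed in kind between these events and all others. In 12497 of 12560 other events (99.5%), the values of a pair of paths mirrored each other, the path intensity of each being the reference of the other. In all 388 multi-path complex events, a single reference served every path and equalled the intensity of none of them. In the 9 genes with 2 such events both events had the same reference. In *Sema6d*, a semaphorin axon guidance gene, the events were apart in the gene and both carried 1525 in set A and 1418 in set B. The reference thus followed the gene, and the table does not say which probe sets enter it.

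As a result, the shifts of several paths share 1 denominator and are not independent. Reference intensities in set B over set A ranged from -0.39 to 0.41 on the log2 scale with a median of -0.04, below 0 in 248 events and above 0 in 136, and none passed the fold. *Pomc*, which encodes the precursor of melanocortins and endorphin and was picked after its values were seen, showed how much this can carry. Its reference went from 188 to 250, while its paths read 196 in both sets and 186 and 185. The shifts of -0.41 and -0.42 therefore lay almost wholly in the reference.

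Of the 1229 measured paths, 45 passed the fold (3.66%), compared with 7.06% over all paths in the table. At the fold, 32 were above 0 (2.60% of paths, compared with 3.56% over all paths) and 13 below 0 (1.06%, compared with 3.49%). These shares rest on unlike references, since a mirrored path is set against the other path of its event and counts once in each direction. They are not a like comparison of effect size. The median absolute shift was 0.14, and 0.17 in other events. Counted by event, 41 of 388 had at least 1 path past the fold (10.6%), compared with 7.34% over all events, 29 by a path above 0 and 12 by a path below. Only 4 of these had 2 such paths, and the other 37 had 1. An event with more paths has more chances to hold one past the fold, and the mirrored events offer only 1 independent shift. The event share did not rise steadily with listed paths. It was 8.70% at 2 paths, 11.4% at 3 and 5.88% at 4, and 1 of 10 events with 5 or more passed. At 2 measured paths, 9.80% of these events and 7.24% of other events passed. Whether path number accounts for the higher event share of the class was not tested. When an event was represented by the median absolute shift of its paths, 6 of 388 passed (1.55%, compared with 7.06% of all events), and when represented by its path of highest intensity, 17 did (4.38%, compared with 7.14%). Neither value can exceed the largest shift of an event, and both paths of a mirrored event have the same absolute shift. The lower shares of the class therefore follow in part from the choice itself.

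**Figure D2:**
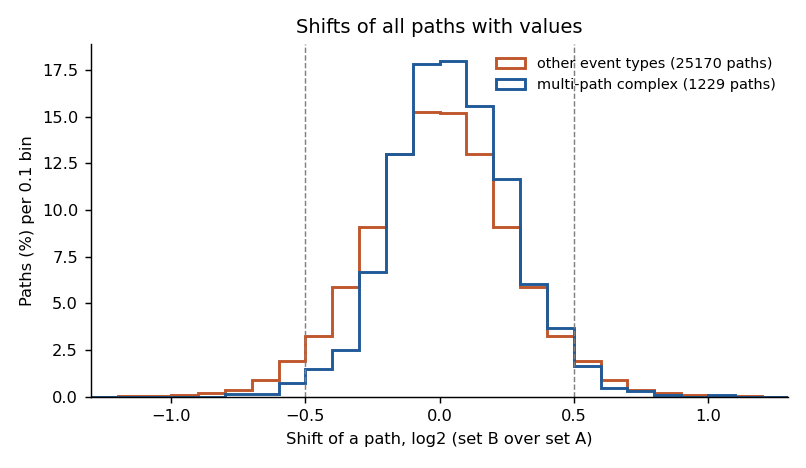
The lines give the percentage of paths in each 0.1-wide bin (vertical axis) of the shift on the log2 scale (horizontal axis) for the 1229 multi-path complex paths and 25170 paths of other events, and the dashed lines mark 0.5 in both directions (the axis ends before the few paths farthest out, at up to 2.13 in other events). The multi-path complex paths, measured against another kind of reference, were narrower and leaned above 0 (57.4% of paths), while the mirrored paths of other events are symmetric by construction.

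In the difference between paths of 1 event the shared reference cancels. Over 2052 such pairs, 103 differed by more than 0.5 (5.02%), compared with 6.91% over all pairs in the table. Events with many paths supply many of these pairs. In events with at most 4 measured paths, 70 of 1131 pairs did (6.19%), near the share over all pairs. In 59 of the 388 events (15.2%, and 11.2% without dim paths) at least 1 pair differed by that much, compared with 7.51% over all events, most of which have a single pair. Of the 41 events past the fold, 20 were among the 59. The median of the largest difference within an event was 0.30, and the highest was 0.93, in *Tdrd1*, which encodes a tudor domain protein of the germ line and was picked for this value. In *Tdrd1*, path n2 was higher and n1 lower in set B, with changes of path intensity of 0.66 and -0.28. *Hk1*, the gene of a hexokinase that starts glycolysis, was picked the same way and had paths n2 and n3 with shifts of 0.47 and -0.35, a 1.76-fold change in their ratio. Neither gene had a path past the fold against the reference.

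The 10 events with the largest shift, among those in which no intensity lay in the lowest 10% of its column (under 100 to 105 units), are described path by path. *Cobll1*, a relative of the cordon-bleu actin regulator, had the largest shift of the class (chr2:65076546-65077460), the 19th largest among 12948 events. Its path n3 read 905 in set A and 1819 in set B, while the reference read 2574 and 2462. Paths n1 (112 and 148) and n2 (1307 and 1491) were also higher in set B, but less so. The shifts of n3, n1 and n2 were 1.07, 0.47 and 0.25, and n3 changed 1.76-fold against n2. It was the only path of the class that passed a shift of 1.

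*Zfp131*, which encodes a zinc finger transcription factor, followed with 0.87 on path n1 (176 and 294) and 0.40 on n3 (345 and 415), against a reference of 735 and 671. It was placed on an unassembled piece of chromosome 13. In *Zfp219*, another zinc finger gene (chr14:52629733-52640408), all measured paths were higher in set B, with 617 and 853 on n4, 167 and 215 on n2, and 374 and 416 on n1. The reference was lower, 641 and 544, and supplied 0.24 of each shift. The shifts were 0.70, 0.60 and 0.39, so the paths changed by at most 0.31 among themselves. Without the reference n4 changed by 0.47, under the fold. In *Trim46*, which encodes an organizer of microtubules at the axon initial segment (chr3:89048333-89049819), n3 read 132 and 177 and had a shift of 0.62. Its paths n1 (666 and 621) and n2 (226 and 230) had shifts of 0.09 and 0.22. Its reference read 920 and 805, and without it n3 changed by 0.42, under the fold.

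*Myo1c*, the gene of an unconventional myosin with cytoplasmic and nuclear isoforms that begin at different first exons (chr11:75465010-75470993), had the widest range of paths among these 10. Path n1 read 217 and 356 and n2 232 and 278, whereas n3 read 619 and 553. The reference was nearly level (241 and 246). The shifts were 0.68, 0.23 and -0.19, and n1 changed 1.84-fold against n3. In *Lin28b*, which encodes an RNA-binding inhibitor of let-7 maturation (chr10:45189024-45206201), n1 (1197 and 1730) and n3 (183 and 251) moved together with shifts of 0.69 and 0.61, and n2 (233 and 245) had 0.23. Its reference read 163 and 146 and supplied 0.16 of each shift. Without it n1 changed by 0.53 and n3 by 0.46, the latter under the fold.

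In *6330408A02Rik*, an uncharacterized gene (chr7:13862777-13864070), n2 read 205 and 291 and n1 265 and 340, with shifts of 0.72 and 0.57, of which the reference (256 and 221) supplied 0.21. *Rnf44*, a RING finger gene (chr13:54785849-54795197), had 136 and 184 on n2, a shift of 0.65, and 0.32 and 0.12 on n3 and n1. Its reference read 1552 and 1341, and without it n2 changed by 0.44, under the fold. In *Sgk3*, which encodes a kinase recruited to endosomes (chr1:9788210-9855211), n2 read 553 and 781 and had a shift of 0.60, with 0.28 and 0.11 on the others. Its reference read 472 and 441, and without it n2 changed by 0.50, just under the fold. Only *Galnt13*, the gene of an enzyme that starts O-linked glycosylation in neurons (chr2:54289140-54368852), had its largest shift below 0. Its n2 read 489 and 307, a shift of -0.64, while n1 (318 and 306) and n3 (300 and 251) had -0.03 and -0.23. It was also the only one of the 10 that was not a start-type event.

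**Figure D3:**
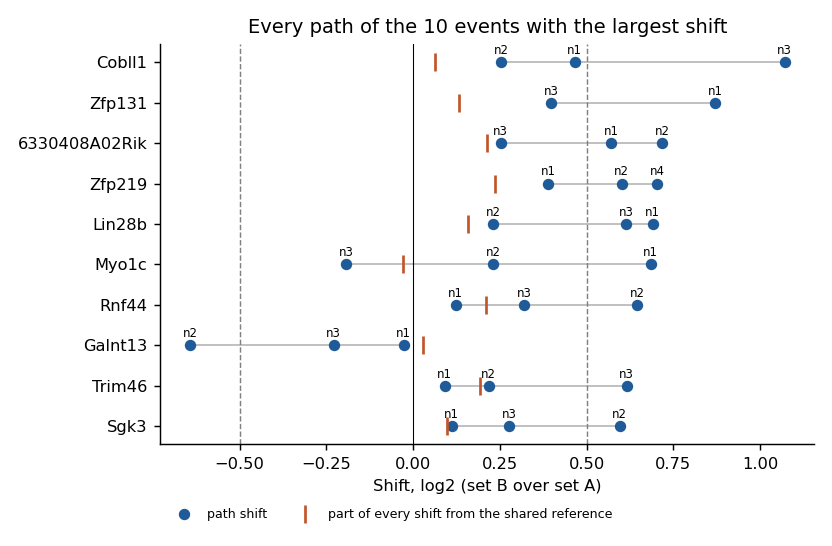
Each point is a measured path of the 10 events, with its shift on the horizontal axis (log2, set B over set A), the gene on the vertical axis and the path name above it, and the orange tick is the contribution of the shared reference, equal in every path of an event. *Cobll1* n3 stood farthest out at 1.07, and *Myo1c* was the only 1 of the 10 with paths on both sides of 0.

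Larger shifts at low intensity were set apart from these. Among the 163 measured paths with an intensity in the lowest 10% of a column, 13 passed the fold (7.98%), compared with 7.06% over all paths of the table, dim or not. Among the 1066 others 32 did (3.00%), compared with 6.23% over all paths of the table without such an intensity. *Senp8*, which encodes a NEDD8 protease, had -0.79 on path n3 (129 and 97) with a reference of 271 and 352. *Oprm1*, the mu opioid receptor gene, had -0.75 on n4 (533 and 406) with a reference of only 68 and 87. *Dach2* had 0.75 on n3 (67 and 110). *Cdc42*, a small GTPase gene, had -0.50 on its dim path n1 (142 and 100), with a steady reference (5015 and 5007) and steady paths n2 and n4.

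The share of paths past the fold was lowest in the events with the most paths. Those with 5 or more paths had 1 path of 113 past the fold (0.885%) and those with 4 had 2 of 135 (1.48%). Those with 3 had 38 of 889 (4.27%) and those with 2 had 4 of 92 (4.35%). The share over all paths of the table, most of them with another kind of reference, was 7.06%. Paths of 1 event share a reference and are not independent units. Counted by event, 1 of the 10 events with 5 or more paths passed, near the 10.6% of the class. The protocadherin gamma event, listed under *Pcdhgc5* (chr18:37821598-37984674), had 22 paths, and RefSeq names 22 genes of the gamma cluster. Its reference was 5043 and 5000. The paths ranged from 340 to 1343 in set A, and their shifts from -0.15 on n11 (536 and 480) to 0.40 on n5 (463 and 604). Between these, n4 (484 and 590) had 0.30 and n10 (340 and 411) 0.29, n8 (829 and 769) had -0.10, and n14 to n22 lay between -0.08 and 0.07. The protocadherin alpha event, under *Pcdhac2* (chr18:37089938-37315808), listed 13 paths and had values for 12, with a reference of 713 and 734. In 11 of the 12 the shift was above 0, from 0.02 on n14 (654 and 682) to 0.35 on n9 (179 and 235), and n5 (368 and 357) was at -0.09.

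*Plec1*, the gene of the cytoskeletal linker plectin (chr15:76025242-76073864), is known for its many first exons. It had 11 paths over a reference of 593 and 602, and 10 were above 0, led by n6 (141 and 196) at 0.45 and n7 (267 and 357) at 0.40. *Ugt1a1*, from a cluster of glucuronidation enzymes that share constant exons, had 8 paths and a dim reference of 97 and 99, with shifts from -0.26 to 0.36. The 5 paths of *Bdnf* (chr2:109514856-109563538) read 114 and 118, 102 and 124, 447 and 453, 65 and 59, and 210 and 239. Its reference was 203 and 207, and its shifts lay between -0.17 and 0.25. RefSeq lists 7 starts for *Bdnf*, with 2 to 13 CpG a window. *Ank3*, which encodes ankyrin G, had shifts from -0.08 to 0.09 over 5 paths, the narrowest of the 10.

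**Figure D4:**
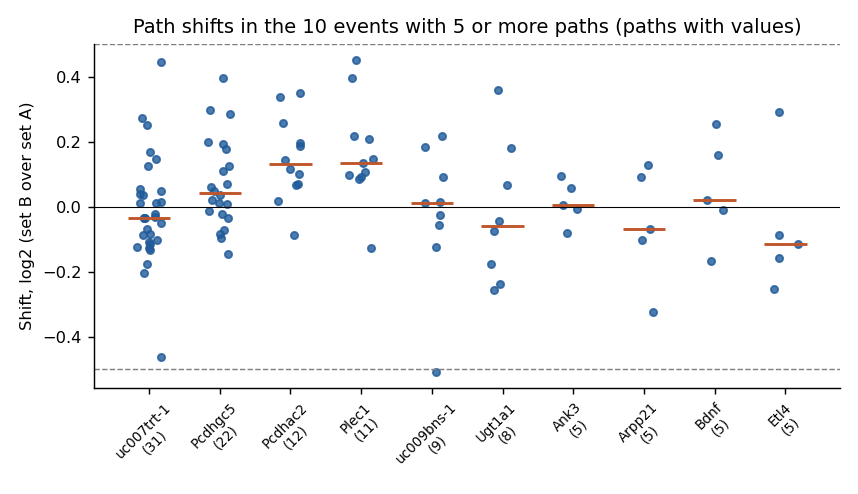
Each point is the shift of a measured path (vertical axis, log2, set B over set A) in the 10 events with 5 or more listed paths (horizontal axis, number of measured paths in parentheses), orange bars are medians over the paths and dashed lines mark 0.5 in both directions. Only 1 point, n16 of uc009bns-1 at -0.51, passed a dashed line.

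Some events carried only a transcript identifier in place of a gene symbol. The event with 31 paths, uc007trt-1 (chr14:53938486-54843439), had *Sall2* and *Dad1* as its nearest named array genes in the order of the table. In RefSeq, 202 of the 229 genes between *Sall2* and *Dad1* are segments of the T cell receptor, including 130 alpha variable and 60 alpha joining segments. Its intensities were low, 67 to 244 in set A with a reference of 150 and 171, and its shifts ran from -0.46 on n24 (75 and 62) to 0.45 on n30 (177 and 275). The 9-path event uc009bns-1 (chr6:41005881-41498351) lay between *Ssbp1* and *Gstk1*, where 53 of 100 RefSeq genes are T cell receptor segments, and its path n16 (139 and 104) had a shift of -0.51. Between *Crip2* and *Zfp386*, around uc007pgx-1, 215 of 257 RefSeq genes are immunoglobulin heavy chain genes, and its path n5 (403 and 280) had -0.64. Such receptor segments are joined by DNA rearrangement in lymphocytes. The identifiers are not paired with gene names in the sources used here, so the events themselves stay unnamed.

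Start-type events leaned above 0 and the others did not. The median shift over start-type paths was 0.07 and 62.3% lay above 0, with 25 past the fold above and 5 below. Over the other paths the median was -0.01 and 47.4% lay above 0, with 7 and 8 past the fold. In both directions together, 3.63% of start-type paths and 3.72% of the other paths passed the fold, compared with 7.06% over all paths. The median reference change was the same in both (-0.03), and a reference below 0 raises every shift of its event. The path intensities carried the difference between the groups, with medians of 0.05 and -0.03. Over the 2-path events of the table, the median path change was 0.04 in alternative starts, 0.03 in alternative 3' and 5' splice sites and twin cassettes, 0.00 in cassettes and retained introns, and -0.04 in alternative ends. No value per animal was at hand to set this lean against the spread between animals. In the direction of single paths, 104 events had every path above 0, 54 every path below 0 and 230 had paths on both sides.

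**Figure D5:**
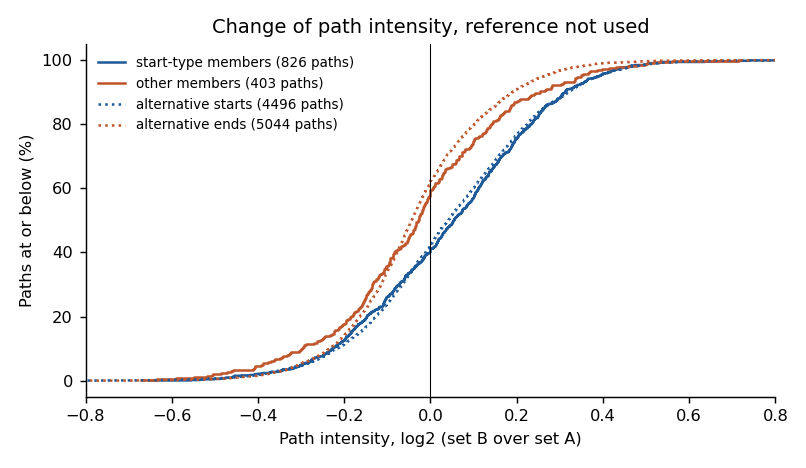
The curves give the percentage of paths (vertical axis) with a change of path intensity at or below the value on the horizontal axis (log2, set B over set A, reference not used), for 826 start-type and 403 other multi-path complex paths and for paths of 2-path alternative starts and ends. The start-type curve follows that of alternative starts, to the right of the curves of the other members and of alternative ends.

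Fixed partial lists of brain gene groups are given next, and other members of the class with related roles, such as *Cobll1*, *Trim46*, *Lin28b*, *Elavl4* and *Sgk3*, are not on them. Of 8 events in listed genes of synaptic adhesion and neurotrophic signalling none passed, and their largest shifts had a median of 0.27. This group had, beside the protocadherins and *Bdnf*, *Ntrk2*, the receptor of the *Bdnf* protein, where shifts were -0.17, -0.04 and 0.04 over a reference of 4568 and 4542. *Nrg1*, a growth factor of synapses and glia, had 0.15, 0.20 and 0.14. Among 6 ion channel events 1 passed, *Kcnip1*, a subunit of A-type potassium channels, with -0.53 on a dim path n3 (100 and 71). *Cacnb2*, a calcium channel subunit, had -0.43 on n1 (259 and 196) and 0.05 and 0.03 on the other paths. None of 4 events on the list of kinases and cyclic nucleotide enzymes passed. There *Prkacb*, a catalytic subunit of protein kinase A with alternative first exons, had -0.32 on both n1 (518 and 428) and n3 (479 and 395), and *Adcy7* had 0.29 on n4 (766 and 1011).

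Of 12 events in listed genes of the cytoskeleton and scaffolds, 1 passed, that of *Myo1c*. *Ank2* stayed within -0.07 to 0.09 on 4 paths, and *Dlgap1*, a postsynaptic scaffold gene, had -0.27 on n3 (568 and 438) and 0.00 and -0.02 on the others. None of 11 events on the RNA processing list passed. *Cugbp1*, a splicing and decay regulator, had -0.21, -0.17 and -0.14, all in the paths, since its reference was 1455 and 1456. *Eif5* had 0.27 on n2 (369 and 441). Among 17 transcription and chromatin events *Zfp131*, *Zfp219* and *Tcfe3* passed, each above 0. In *Tcfe3*, n3 (171 and 211) had 0.50, and without the reference it changed by 0.30, under the fold. *Nfib*, a factor of glial and neuronal differentiation, had -0.22 on n4 (1230 and 947), and *Zfp422* had 0.05 and 0.00. Among 10 solute carriers 3 passed, again each above 0. *Slc39a8*, a metal ion transporter gene with a dim path n2, had 0.71 on n1 (250 and 327), of which its reference (246 and 197) supplied 0.32. At 0.39, the path alone lay under the fold. *Slc38a4* had 0.56 on n1 (206 and 293), and *Slco2b1* had 0.50 on n1 (136 and 183). Without the reference, n1 of *Slc38a4* changed by 0.51 and n1 of *Slco2b1* by 0.43, the latter under the fold. *Slc24a2* and *Slc38a1*, an exchanger of sodium and calcium and a glutamine transporter that neurons use, lay between -0.12 and 0.13. Of 3 events in genes of clustered first exons none passed, and no event lay in the fixed lists of neurotransmitter receptor or myelin genes. These shares of 0 to 3 events are to be read beside the 10.6% of the class and 7.34% of all events.

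The same genes also had 533 events of other types, of which 35 passed the fold (6.57%, near the 7.34% of all events). The genes with a multi-path event past the fold had 47 of these, and 2 passed (4.26%), in *Nedd4l* and *Rgs7*, with largest absolute shifts of 1.05 and 0.54. In *Nedd4l*, the gene of a ubiquitin ligase of ion channels, the multi-path event reached 0.52 on n4 (297 and 357) over a reference of 2414 and 2018. Without this reference n4 changed by 0.27, under the fold. In *Rgs7*, a regulator of G protein signalling in neurons, n4 (701 and 468) and n1 (471 and 329) had -0.57 and -0.51 over a level reference of 2443 and 2424. *Elavl4*, which encodes a neuronal RNA-binding protein, had -0.58 on n3 (421 and 268), while n4 (716 and 628) had -0.11. *Bdh1*, a gene of ketone metabolism with an intronic IAP retroviral element that the study assayed, had 0.53 on a dim path n1 (98 and 131), 0.46 on n3 (266 and 340) and -0.05 on n2 (753 and 675). *Pde4d*, the gene of a cyclic AMP phosphodiesterase and another host of such an element, had no path past the fold, with -0.42 on n2 (185 and 133), -0.13 on n3 (459 and 404) and 0.13 and -0.02 on n1 and n4. In *Rgs3*, a further host, the reference read 331 in both sets, and paths n4, n5 and n6 had shifts of -0.20, -0.17 and 0.04. Whether the events of *Bdh1*, *Pde4d* and *Rgs3* cover the introns with the elements is not known here. A link between these shifts and the elements was not tested.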

How the data were processed

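Whole-brain RNA from 6 animals, 3 of each *Nxf1* genotype, was hybridized to MJAY arrays, and Affymetrix Power Tools is the software the submitters' notes name. Normalization, background correction and genome build are not given in the sources used here. The authors deposited path and reference intensities (headed skip and incl) for sets A and B, pooled over the arrays of a set, as other whole-number values. They also deposited 4 columns of their own comparisons, a separation score and a q-value for a paired and a standard comparison, which were not used. The paired and standard intensities were the same wherever both were given.

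Shifts were computed from the 4 paired intensities without a pseudocount. A path was dim when any intensity lay under the 10th percentile of its column. The number of arrays limits the precision, which is unknown per animal, and no p-value, SD or interval was possible. Named were the 10 events with the largest absolute shift and no dim path, the 5 with the most paths, and from each gene list the 2 with the highest mean intensity. Any in the span taken for the congenic interval or among genes taken to gel assays were also to be named (none). Members, lists and rules were chosen with earlier results of these data known, and further genes were named after their values were seen. The counting of folds was run on simulated data with planted shifts and no noise, which checks the arithmetic alone. Positions are those of the table, where 120 events start beyond the last RefSeq gene of their chromosome in GRCm38.p6, so the table follows another build. RefSeq gave names, neighbours and promoter windows only. Python 3.11.15, numpy 2.4.6, pandas 2.3.3 and matplotlib 3.10.9 were used.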

Additional observations from a re-analysis of the deposited data

How the results depend on the processing

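Of 388 events, 41 passed the fold, and of 1229 paths, 45. A threshold of 0.75 left 3 events (0.773%, under the 1.15% of all events, which turns the order seen at 0.5) and 3 paths, and a threshold of 1 left 1 (0.258%, 0.224% of all events) and 1. A pseudocount of 32 gave 23 events (5.93%, 4.12% of all) and 26 paths, and medians of 0.13 for the absolute shift and 0.25 for the largest shift of an event (0.14 and 0.28 without it). That median was also 0.25 without dim paths, and 0.15 for the median shift of an event in place of the largest. One value an event gave 17 (path of highest intensity) or 6 (median). Chosen after seeing the data, path intensity alone gave 27 events (6.96%, 6.53% of all) and 29 paths, and centring it on the mean of the event, which shrinks differences between few paths, gave 0 and 0. The threshold of log2(1.4), the standard intensities and the removal of dim paths kept both counts within 1.5 times. Without dim paths, however, 28 of 376 events passed (7.45%, 6.45% of all), so the event share came nearer that of all events. The inclusion value centred within an event is 0 for every path by construction and was not run. At 2 measured paths 9.80% of these events and 7.24% of others passed, at 3 paths 11.2% and 5.41% (2 of 37), and at 4 paths 6.06% and 15.4% (2 of 13). Of 15 named paths 11 were past the fold. The pseudocount took 1 of them (uc009bns-1 n16) under it, path intensity alone 5 and centring all 11. None of the 15 changed sign. No paired analysis was possible because the columns carry pooled sets and no animal or pair, and no replicate could be left out.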
